A study of Homo sapiens with 6 samples.

Results

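The genes described here encode the aminoacyl-tRNA synthetases, the enzymes that join each amino acid to its transfer RNA, and the 3 scaffold proteins that hold several of them together. They were chosen by name from the deposited gene table, which listed 37 of them among 15598 genes, and 11831 genes, including all 37, passed the filter on low counts. The set held 19 cytosolic synthetases, 15 mitochondrial synthetases (symbols ending in 2) and the scaffolds AIMP1, AIMP2 and EEF1E1. AIMP2 ends in 2 but is a part of the cytosolic complex, and was counted with the scaffolds. GARS and KARS each encode the cytosolic and the mitochondrial enzyme in 1 gene and were counted as cytosolic. VARS, VARS2 and SARS2 were not analysed here.

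RNA was sequenced from MHCC97H, a human hepatocellular carcinoma line with high metastatic capacity. The series compared 3 libraries of cells with a short hairpin RNA against HNRNPC (shHNRNPC) and 3 libraries of cells with a control hairpin (shcontrol), to find the genes that change when HNRNPC is knocked down. HNRNPC encodes a nuclear RNA-binding protein that takes part in splice site choice. The labels give 1 cell line and tell apart 1 hairpin against HNRNPC, and the design text speaks of independent replicates without saying what was repeated, so p-values measure the spread between these libraries. Totals ran from 15563077 to 18328475 counts per library, a depth similar in both groups. The targeted gene HNRNPC gave 14409, 13507 and 15908 counts in shcontrol against 1010, 1164 and 1042 in shHNRNPC, and 7.30% of its shcontrol level was left (edgeR). The epithelial keratin KRT8 was abundant (1006 ± 7.07 CPM in shcontrol, counts scaled to a library of 1000000, mean ± SD, n = 3), whereas the hepatocyte genes ALB, APOA1 and HNF4A had 1, 2 and 29 counts over all 6 libraries. Summed markers of leukocytes and endothelium were each at most 2.22 CPM in any library. Those of fibroblasts summed to 18.6 to 20.9 CPM in shcontrol and 19.4 to 20.9 CPM in shHNRNPC, mostly COL1A1, and the part of other cells in the results was not tested.

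Each synthetase reads 1 amino acid and its set of transfer RNAs, and most amino acids have separate nuclear genes for the enzyme of the cytosol and the enzyme imported into mitochondria. In animal cells a group of cytosolic synthetases sits in a multisynthetase complex built on the 3 scaffold proteins. Many cytosolic synthetase genes are known targets of ATF4, a transcription factor made during the integrated stress response that binds C/EBP-ATF response elements. WARS is also known as an interferon-induced gene. The response begins when kinases such as GCN2, which senses uncharged transfer RNA, phosphorylate the initiation factor eIF2.

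The sequences below are shown because the letters of this response element stood in the promoters of several cytosolic synthetases. The search used the letters TGATGNAAN on both strands of RefSeq promoters (GRCh38.p14, 250 bases before to 50 bases from the gene's start). A promoter was found for 32 of the 37 genes. AARS2, DARS, LARS and YARS were among the genes with no entry. The element was found in 7 of 16 cytosolic synthetase genes (43.8%), 1 of 13 mitochondrial synthetase genes (7.69%) and 0 of 3 scaffold genes. Over tested genes with a promoter the share was 268 of 9687 (2.77%), and over all promoters of this length in the table it was 3.61%. A match describes these letters only and shows no binding. Each site is printed 5′ to 3′ on the strand that reads TGATG, with 10 bases on either side and the 9 bases of the element in capitals.
AARS (chr16:70289676-70289704, plus strand): ctaacttggcTGATGCAACtgcgagaaaa
CARS (chr11:3057408-3057436, plus strand): tcctagaatcTGATGCAACcgccgccccg
GARS (chr7:30594834-30594862, minus strand): gctcggagcaTGATGAAATcgccgcgtaa
IARS (chr9:92293693-92293721, plus strand): cgcacggaggTGATGCAACgcgctgaaaa
MARS (chr12:57488053-57488081, minus strand): aatccctcgcTGATGCAACcggaaccggc
NARS (chr18:57621804-57621832, minus strand): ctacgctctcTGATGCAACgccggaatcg
TARS (chr5:33440956-33440984, minus strand): ctggaccagcTGATGCAATcgaaaggcgc
YARS2 (chr12:32756076-32756104, minus strand): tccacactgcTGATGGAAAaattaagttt
The 9 letters were identical in AARS, CARS, IARS, MARS and NARS. Counted from the gene's start, with negative positions upstream of it, the element began at -188 in AARS and -197 in YARS2, and from -34 in GARS to 14 in NARS in the other 6 genes.

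In shcontrol cells most cytosolic synthetases were more abundant per transcript length than the mitochondrial ones. Levels of different genes are compared here as CPM per kilobase, using the length of the longest coding transcript in GENCODE 29. The median over genes was 72.6 CPM per kilobase in the cytosolic class and 17.98 CPM per kilobase in the mitochondrial class. The highest were FARSA, the alpha subunit of the phenylalanine enzyme (209 ± 3.48 CPM per kilobase, mean ± SD, n = 3), KARS for lysine (202 ± 1.51) and AARS for alanine (201 ± 4.58). KARS and AARS lay within their spread of each other. YARS (109 ± 2.80 CPM per kilobase) and SARS (106 ± 2.58) came next, again within their spread. The most abundant mitochondrial enzyme was CARS2 for cysteine (84.7 ± 2.62 CPM per kilobase) and the least abundant was WARS2 for tryptophan (6.84 ± 0.0990). FARSB, which forms 1 enzyme with FARSA, had 34.0 ± 0.877 CPM per kilobase.
In 14 of 16 cytosolic and mitochondrial pairs for the same amino acid the cytosolic gene had the higher level per length. The exceptions were glutamate, where EPRS (35.8 ± 0.123 CPM per kilobase) was close to EARS2 (36.7 ± 0.0649), and cysteine. CARS had the lowest level of all 37 genes (4.07 ± 0.137 CPM per kilobase), near that of the scaffold EEF1E1 (4.26 ± 0.155), and its mitochondrial partner CARS2 was 20.8-fold higher. At the other end AARS was 18.5-fold and FARSA 15.6-fold above the mitochondrial partner. With all exonic bases of a gene as its length, a choice added after the data were seen, the count was 15 of 16.

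**Figure D1:**
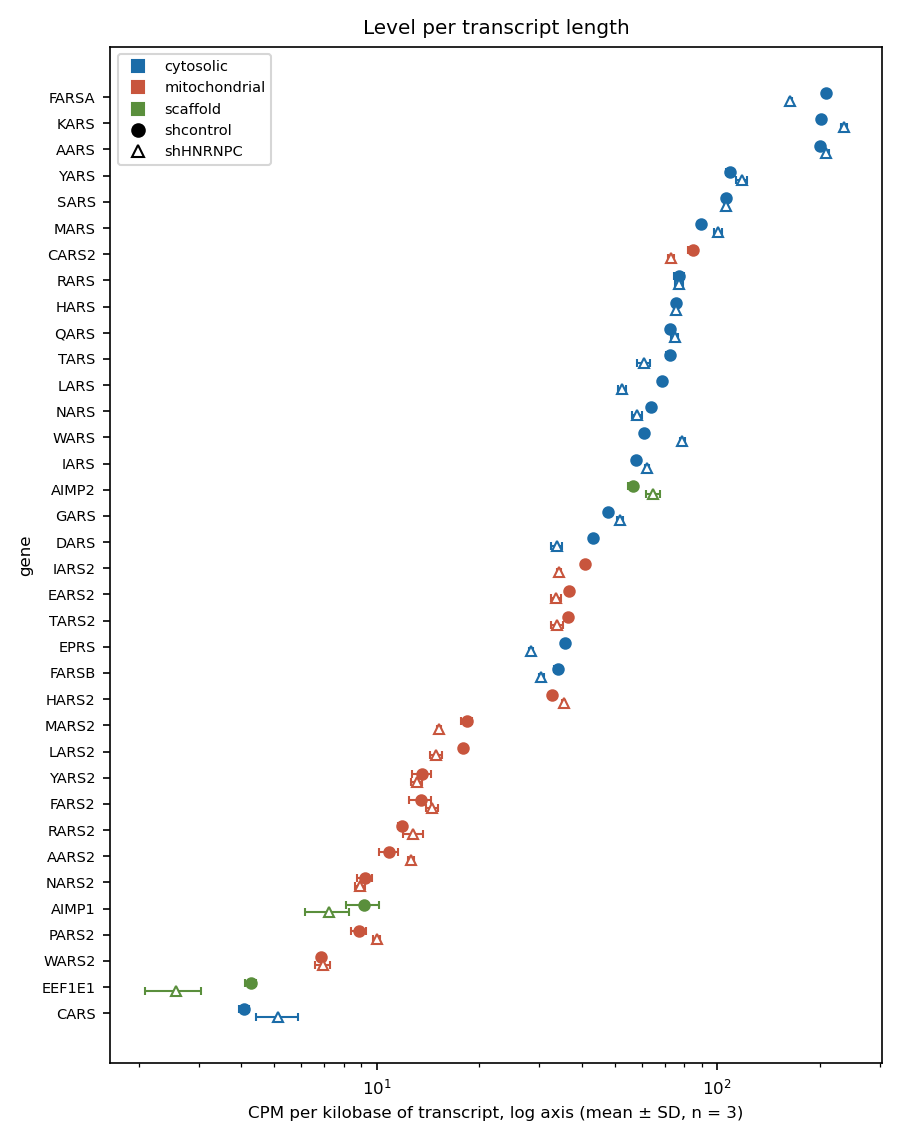
CPM per kilobase of transcript of 36 of the genes on a log axis, as mean ± SD of 3 libraries, with filled circles for shcontrol, open triangles for shHNRNPC and colours for the classes. Cytosolic genes fill most of the upper range up to FARSA, mitochondrial genes most of the lower range, and CARS and EEF1E1 stand lowest.

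After HNRNPC knockdown the synthetase genes split in direction, and the changes were small. At an adjusted p under 0.05 (edgeR's quasi-likelihood test, Benjamini-Hochberg over all tested genes) 12 of the 37 genes were higher and 15 were lower in shHNRNPC, and 10 were not called. That is 73.0% of the set, where 61.1% of all tested genes were called (29.8% higher and 31.3% lower). The 27 called genes were also those with no overlap of CPM between the groups, against 64.0% of all tested genes (30.9% higher and 33.0% lower). With a log2 fold change of at least 0.32 in size required as well, 2 genes were higher and 6 lower, where 32.4% of all tested genes were called (12.3% higher and 20.1% lower). The median size of the log2 fold change was 0.16 over the 37 genes and 0.23 over all tested genes. In bulk RNA, fewer cells with a transcript and less of it per cell cannot be told apart.
Of 19 cytosolic synthetases 8 were higher and 7 lower, with a median log2 fold change of 0.00083. Of 15 mitochondrial synthetases 3 were higher and 6 lower, with a median of -0.045. All tested genes had a median of -0.0041. The cytosolic values ran from -0.39 to 0.37 and the mitochondrial values from -0.27 to 0.22. The log2 size of 0.32 was passed by 6 called cytosolic genes and 0 mitochondrial genes as counted, and no test was made between the classes.
A refit that removed the smooth trend of fold change with transcript GC content and length changed several of these calls. With it 6 of the 37 genes were higher and 16 lower, where 27.3% and 27.8% of all tested genes were called. Of the called genes that passed the log2 size of 0.32 with it, 1 was cytosolic (FARSA), 1 mitochondrial (CARS2) and 1 a scaffold (EEF1E1), all lower. At that size with the correction, 1548 of all 11831 tested genes were higher and 1470 lower. Of the 12 genes called higher as counted, 3 kept the call (IARS, KARS and WARS), and of the 15 called lower 13 kept it. The trend accounted for 20.8% of the deviance of log2 fold changes over 11813 genes. Leaving out 1 library at a time left 9 to 12 genes higher and 14 or 15 lower.
Of the 7 cytosolic genes whose promoter held the response element printed above, 5 were higher in shHNRNPC (AARS, CARS, GARS, IARS and MARS) and 2 were lower (NARS and TARS). With the correction IARS stayed higher, NARS and TARS stayed lower and the other 4 were not called. Of the 9 cytosolic genes with a promoter and no match, 2 were higher, 3 were lower and 4 were not called. Over all tested genes 29.8% were higher and 31.3% lower as counted. With the correction KARS, RARS and WARS of these 9 were called higher, and EPRS, FARSA, QARS and SARS lower. So the larger part of higher genes among those with a match was not seen with the correction. The difference between genes with and without a match was not tested.

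**Figure D2:**
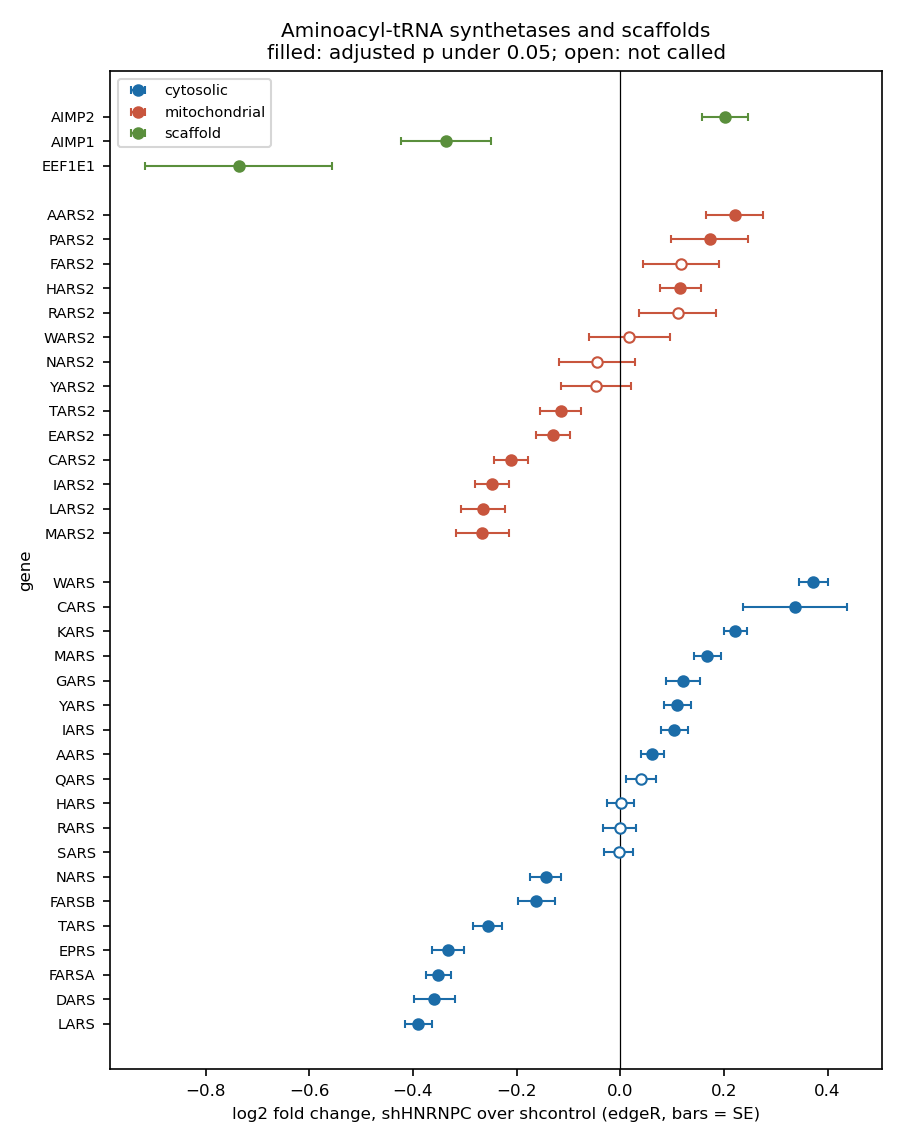
Log2 fold change of 36 of the genes, shHNRNPC over shcontrol, with bars for the standard error, sorted within the 3 classes. Filled points passed an adjusted p of 0.05 in edgeR. The cytosolic genes spread from LARS at -0.39 to WARS at 0.37, and the mitochondrial genes from -0.27 at MARS2 to 0.22 at AARS2.

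Among the cytosolic enzymes, WARS, for tryptophan, had the largest rise as counted. Its level was 188, 186 and 192 CPM in shcontrol and 248, 244 and 240.1 CPM in shHNRNPC; library values are given here and below in the order NC_3, NC_3_2, NC_3_3 for shcontrol and SI_3, SI_3_2, SI_3_3 for shHNRNPC. Every shHNRNPC library lay above every shcontrol library, a 1.29-fold rise (log2 fold change 0.37, SE 0.0278, edgeR adjusted p = 7.45e-16). KARS, the lysine enzyme of both compartments, had 485, 490.1 and 492 CPM in shcontrol and 581, 573 and 558 CPM in shHNRNPC. The groups did not overlap, and the rise was 1.17-fold (edgeR adjusted p = 5.15e-12). With the GC and length correction the log2 fold change of WARS was 0.27 and that of KARS 0.19, both still called.
CARS, for cysteine, rose 1.26-fold from a low level. It had 10.9, 11.1 and 11.6 CPM in shcontrol and 13.6, 16.4 and 12.6 CPM in shHNRNPC, with SI_3_2 the highest and the groups apart (edgeR adjusted p = 0.00355). Without SI_3_2 the call was lost (log2 fold change 0.22, adjusted p = 0.0853), as it was with the correction (0.21, adjusted p = 0.0721).
MARS, for methionine, had 257, 265 and 258 CPM in shcontrol and 299, 292 and 285 CPM in shHNRNPC. GARS, the glycine enzyme of both compartments, had 124, 127 and 125 CPM and 138, 138 and 133 CPM. In both genes all shHNRNPC libraries were higher, by 1.12-fold and 1.09-fold (edgeR adjusted p = 3.99e-07 and 0.00168). Neither call held with the correction, where the log2 fold changes were 0.046 for MARS and 0.060 for GARS. In GENCODE 29, 12.4% of the exonic bases of MARS are also exonic in genes on the other strand, ARHGAP9 and DDIT3. Whether strand was used in counting is not given in the sources used here.
IARS for isoleucine, YARS for tyrosine and AARS for alanine rose by 1.07-fold, 1.08-fold and 1.04-fold (edgeR adjusted p = 5.58e-04, 2.50e-04 and 0.0113). IARS was larger with the correction (0.26), while YARS and AARS turned to -0.0011 and -0.033 and were no longer called. AARS also lost its call without NC_3, where its log2 fold change was 0.040, and without SI_3_2, where it was 0.051.

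LARS, for leucine, had the largest fall of a synthetase as counted. It had 332, 326 and 328 CPM in shcontrol and 248, 246 and 258 CPM in shHNRNPC, a 1.31-fold fall with no overlap (log2 fold change -0.39, SE 0.0259, edgeR adjusted p = 1.27e-17). DARS, for aspartate, fell 1.28-fold, from 100.1, 103 and 103 CPM to 81.0, 81.6 and 76.4 CPM. EPRS, a single protein with the glutamate and the proline enzyme, fell 1.26-fold, from 180.1, 179 and 179 CPM to 143, 141 and 144 CPM. In both genes every knockdown library was below every control library (edgeR adjusted p = 9.13e-11 for DARS and 4.79e-13 for EPRS). TARS, for threonine, fell 1.19-fold, from 309, 321 and 309 CPM to 274, 259.7 and 253 CPM, with SI_3 the highest of the knockdown libraries (edgeR adjusted p = 4.65e-11).
These 4 genes kept their calls with the correction, at smaller log2 fold changes of -0.13 for LARS, -0.19 for DARS, -0.15 for EPRS and -0.11 for TARS. NARS, for asparagine, fell 1.10-fold (edgeR adjusted p = 5.72e-05) and had a log2 fold change of -0.077 with the correction.
The subunits of the phenylalanine enzyme both fell, by unequal amounts. FARSA, the alpha subunit, fell 1.28-fold, from 438, 428 and 424 CPM to 335, 340.4 and 336 CPM (log2 fold change -0.35, SE 0.0236, edgeR adjusted p = 1.88e-17). FARSB, the beta subunit, went from 114 ± 2.95 to 102 ± 1.76 CPM (mean ± SD, n = 3), a 1.12-fold fall (edgeR adjusted p = 1.55e-04). With the GC and length correction FARSA was lower still, at -0.53, whereas FARSB turned to 0.032 and lost its call.
HARS for histidine, QARS for glutamine, RARS for arginine and SARS for serine were not called as counted. HARS had 265, 264 and 262 CPM in shcontrol and 259.6, 264 and 267 CPM in shHNRNPC, with overlapping groups. The log2 fold changes of HARS, QARS, RARS and SARS were 0.00083, 0.040, -0.00088 and -0.0034 (SE 0.0259, 0.0285, 0.0317 and 0.0289). With the correction RARS was called higher (0.15), and QARS (-0.090) and SARS (-0.15) were called lower.

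**Figure D3:**
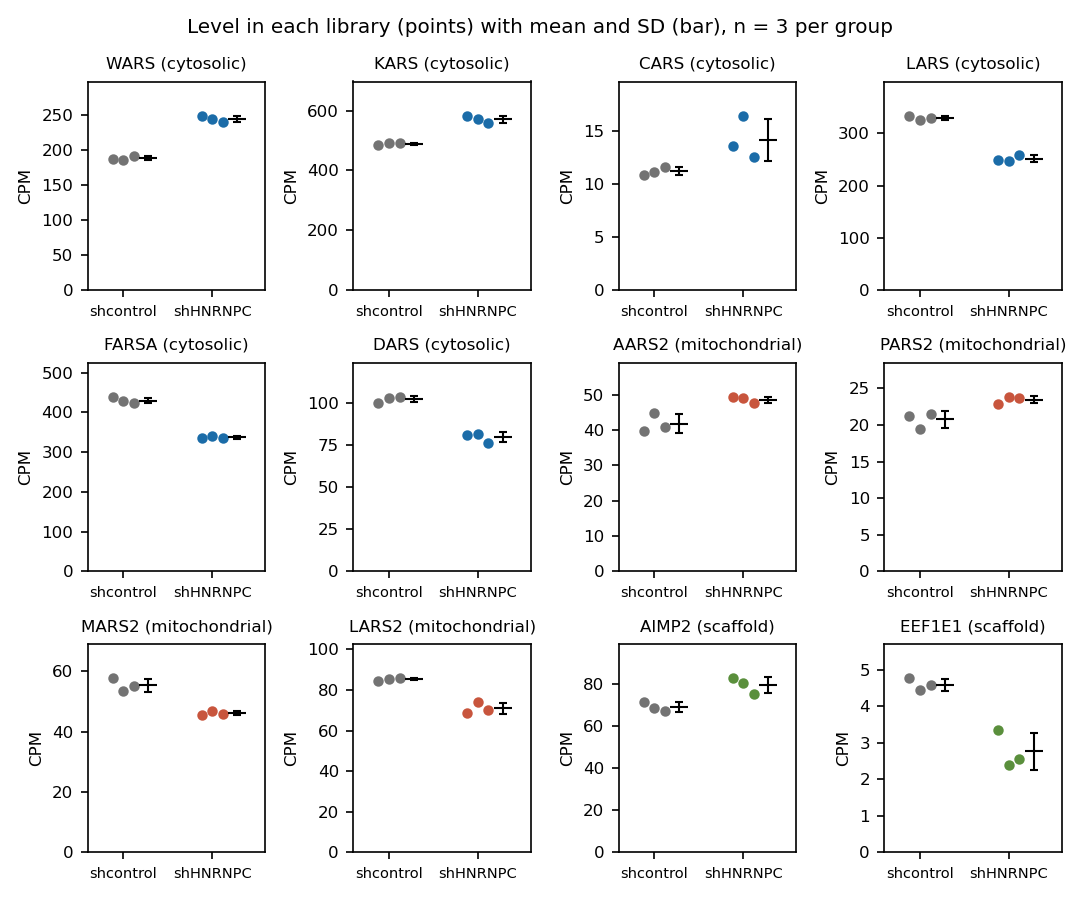
CPM of 12 genes in each library, with 3 grey points for shcontrol, 3 coloured points for shHNRNPC and a bar for the mean and SD, on axes from 0. The groups are apart in each panel, and of these 12 genes CARS and EEF1E1 show the widest spread in shHNRNPC relative to their level.

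No mitochondrial enzyme reached a log2 fold change of 0.32 in size as counted, and CARS2 passed it with the GC and length correction (-0.38). MARS2, for methionine, fell 1.20-fold, from 57.7, 53.5 and 55.0 CPM in shcontrol to 45.5, 46.8 and 46.0 CPM in shHNRNPC (log2 fold change -0.27, SE 0.0506, edgeR adjusted p = 1.30e-05). LARS2, for leucine, fell 1.20-fold, from 84.5, 85.6 and 85.7 CPM to 68.7, 74.2 and 69.9 CPM (edgeR adjusted p = 4.87e-07). In both genes every knockdown library was below every control library.
IARS2, for isoleucine, fell 1.19-fold, from 146, 146 and 144 CPM to 123, 123 and 121 CPM (edgeR adjusted p = 9.29e-09). CARS2, for cysteine, fell 1.16-fold, from 164, 158 and 155 CPM to 139.5, 134 and 139 CPM (edgeR adjusted p = 3.23e-07). EARS2, for glutamate, fell 1.09-fold, from 145, 146 and 146 CPM to 133, 129 and 137 CPM (edgeR adjusted p = 7.29e-04), with the control libraries nearly equal.
TARS2, for threonine, fell 1.08-fold (edgeR adjusted p = 0.00998) and lost its call without NC_3_2 (log2 fold change -0.098) and without SI_3_2 (-0.085). All 6 of these falls stayed called with the GC and length correction, where TARS2 was at -0.25, and IARS2 was smaller, at -0.14.

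The mitochondrial genes that rose were AARS2, PARS2 and HARS2. AARS2, for alanine, had 39.6, 44.7 and 40.9 CPM in shcontrol and 49.2, 48.9 and 47.6 CPM in shHNRNPC, a 1.17-fold rise with no overlap (log2 fold change 0.22, SE 0.0546, edgeR adjusted p = 5.24e-04). PARS2, for proline, had 21.3, 19.5 and 21.5 CPM and 22.9, 23.8 and 23.6 CPM, a 1.13-fold rise close to the threshold (edgeR adjusted p = 0.0403). That call was lost by DESeq2 (adjusted p = 0.122), with any library but NC_3_3 left out and under 4 other settings.
HARS2, for histidine, had 80.6, 82.1 and 83.3 CPM and 88.6, 89.9 and 88.3 CPM, a 1.08-fold rise (edgeR adjusted p = 0.0102). With the correction the log2 fold changes were 0.12, 0.024 and 0.024 and none of the 3 was called.
HARS2 starts next to its cytosolic partner. In the deposited table HARS lies at chr5:140673915-140691341 on the minus strand and HARS2 at chr5:140691609-140698628 on the plus strand, back to back with 267 bases between them. GENCODE 29 gives exons of each that overlap the other, so where strand was not used some reads of the pair cannot be told apart.
FARS2, NARS2, RARS2, WARS2 and YARS2 were not called, with log2 fold changes of 0.12, -0.045, 0.11, 0.017 and -0.047. Their levels in shcontrol were 19.2 to 28.8 CPM, and the SE of these 5 log2 fold changes was 0.0676 to 0.0784. With the correction RARS2 (0.22) was called higher and YARS2 (-0.16) lower.

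For 16 cytosolic and mitochondrial partners the balance within each amino acid was compared as the log2 ratio of their CPM in each library. As counted the ratio went down in shHNRNPC for 11 pairs and up for 5. With the GC and length correction the cytosolic log2 fold change was above the mitochondrial one for leucine, threonine, glutamate and FARSB with FARS2. These pairs were among the 11, and none of the 5 turned, so the split depended on the correction. No pair could pass, since an exact two-sided permutation test of 3 against 3 libraries gives at least p = 0.1, which 13 pairs reached (adjusted p = 0.123 over 16 pairs).
For cysteine, isoleucine, methionine and proline both genes were called in opposite directions as counted. With the GC and length correction isoleucine alone of these 4 kept both calls, since CARS, MARS and PARS2 lost theirs. The CARS over CARS2 log2 ratio was -3.91, -3.82 and -3.73 in shcontrol and -3.36, -3.03 and -3.46 in shHNRNPC, a change of 0.54. MARS over MARS2 went from 2.16, 2.31 and 2.23 to 2.72, 2.64 and 2.63, a change of 0.43. IARS over IARS2 went from 0.89 ± 0.0360 to 1.24 ± 0.0109 (mean ± SD, n = 3) without overlap, a change of 0.35. In these 3 pairs the cytosolic gene was higher and the mitochondrial gene lower.
For proline it was the reverse. EPRS over PARS2 went from 3.08, 3.20 and 3.05 to 2.64, 2.56 and 2.61, a change of -0.51. Both partners were called in the same direction for leucine, threonine and glutamate (LARS and LARS2, TARS and TARS2, EPRS and EARS2, all lower) and for alanine (AARS and AARS2, both higher, both calls lost with the correction). In these 4 pairs the ratio changed by -0.12, -0.14, -0.20 and -0.16 as counted. With the correction the cytosolic gene fell less than its partner for leucine (log2 fold changes -0.13 and -0.28), threonine (-0.11 and -0.25) and glutamate (-0.15 and -0.19). As counted it fell more in each. Alanine kept its direction (-0.033 and 0.12). WARS over WARS2 changed by 0.36 with only WARS called.

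**Figure D4:**
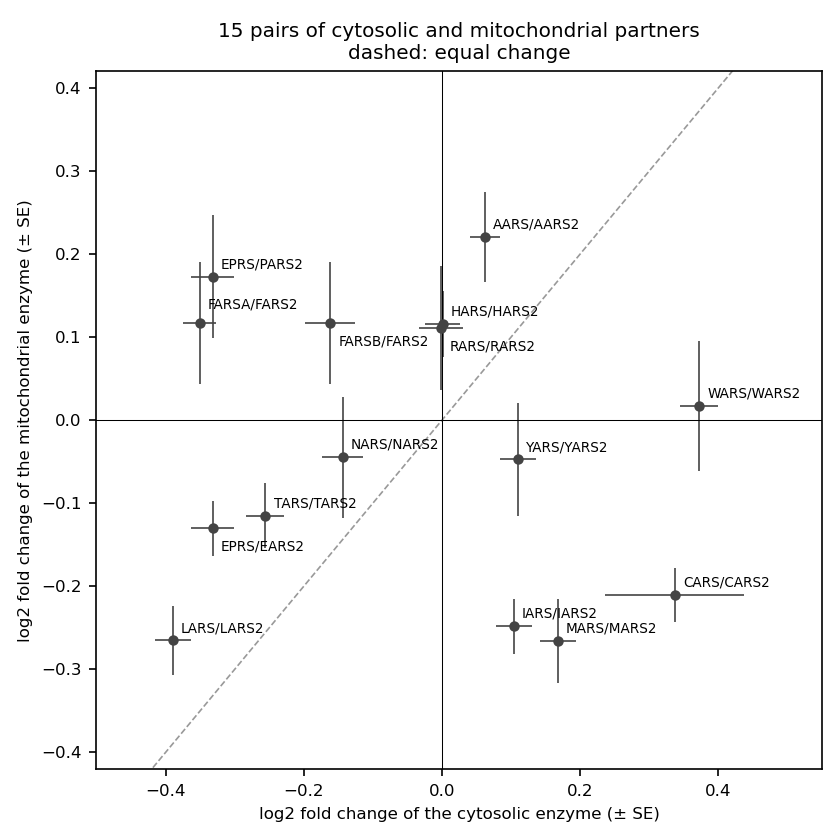
Log2 fold change of the cytosolic gene (horizontal) against that of its mitochondrial partner (vertical) in 15 of the pairs, with bars for the standard error and a dashed line for equal change. Pairs fall in all 4 quadrants, with LARS and LARS2 lower together and CARS, MARS and IARS opposite to their partners; EPRS and FARS2 each appear in 2 pairs.

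All 3 scaffold genes of the multisynthetase complex changed. AIMP2 rose 1.15-fold, from 71.6, 68.7 and 67.1 CPM in shcontrol to 82.7, 80.6 and 75.3 CPM in shHNRNPC (log2 fold change 0.20, SE 0.0442, edgeR adjusted p = 1.08e-04). AIMP1 fell 1.26-fold, from 21.9, 26.7 and 22.4 CPM to 16.8, 17.3 and 21.8 CPM, where SI_3_3 lay just under the lowest control library, NC_3 (edgeR adjusted p = 8.20e-04). With the correction AIMP2 was at 0.022 and AIMP1 at -0.021, and neither was called. In GENCODE 29, 28.9% of the exonic bases of AIMP2 are also exonic in EIF2AK1 on the other strand.
EEF1E1 had the largest fold change of the 37 genes as counted. Its counts were 81, 70 and 85 in shcontrol and 55, 42 and 45 in shHNRNPC, a 1.67-fold fall (log2 fold change -0.74, SE 0.180, edgeR adjusted p = 4.41e-04). The groups did not overlap, and the SE was the largest of the 37 genes. With the correction its log2 fold change was -0.50 and still called. In GENCODE 29 a read-through gene, EEF1E1-BLOC1S5, covers 18.6% of its exonic bases on the same strand. The part of shared reads in the fall was not tested. The deposited FPKM of EEF1E1, not used for any value here, also fell but by less than the counts, so the size of its fall is uncertain.
Counting the synthetases in the complex with the scaffolds, 4 of 11 genes were higher (IARS, MARS, KARS and AIMP2), 5 were lower (LARS, DARS, EPRS, AIMP1 and EEF1E1) and 2 were not called (QARS and RARS). As counted the 5 lower genes each passed the log2 size of 0.32 and none of the 4 higher genes reached it, where 20.1% of all tested genes were lower and 12.3% higher at that size. With the correction EEF1E1 alone of the 5 passed it. Outside the complex, 5 of 11 cytosolic synthetases were higher and 4 lower as counted, where 29.8% and 31.3% of all tested genes were. With the correction 1 was higher and 4 lower outside the complex. Of the 11 genes of the complex 3 were higher and 5 lower with it, where 27.3% and 27.8% of all tested genes were.

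Among stress-response genes, ATF4 rose. It had 259, 255 and 258 CPM in shcontrol and 392, 389 and 382 CPM in shHNRNPC, a 1.51-fold rise (edgeR adjusted p = 5.10e-25). The log2 fold change of ATF4 was 0.59 as counted and 0.42 with the correction, still called. In a list of 40 genes of the integrated stress response and amino acid supply, 36 were tested, 21 were higher and 9 were lower, where 29.8% and 31.3% of all tested genes were. The median log2 fold change was 0.20, beside 0.00083 for the cytosolic synthetases. With the correction 19 were higher and 11 lower, and these medians were 0.13 and -0.0011. GDF15, a stress-induced cytokine, rose 3.07-fold, NUPR1, a stress-induced chromatin protein, 1.63-fold and SLC1A5, a glutamine transporter, 1.24-fold. Their log2 fold changes were 1.62, 0.71 and 0.31 as counted and 1.39, 0.73 and 0.17 with the correction.
Several amino acid transporters of the same list were lower. SLC7A11, the cystine transporter, fell 2.23-fold, SLC7A1, for cationic amino acids, 1.74-fold and SLC38A2, for small neutral amino acids, 1.63-fold. Their log2 fold changes were -1.155, -0.80 and -0.70 as counted and -0.66, -0.77 and -0.31 with the correction, all still called. CEBPG, a partner of ATF4, fell 1.54-fold (log2 fold change -0.63 as counted and -0.50 with the correction).
Of 16 tested genes of the eIF2 pathway 1 was higher and 9 were lower, where 29.8% and 31.3% of all tested genes were. The median over these 16 was -0.10. EIF2AK4, which encodes GCN2, fell from 54.0, 54.7 and 53.3 CPM to 38.0, 39.7 and 41.1 CPM (1.36-fold, edgeR adjusted p = 4.93e-10), with no overlap. EIF2AK3, which encodes the kinase PERK, fell 1.66-fold, from 17.5 ± 1.90 to 10.5 ± 0.704 CPM. EIF2AK1 (HRI) and EIF2AK2 (PKR) were not called, at log2 fold changes of 0.024 and -0.059, and both were called higher with the correction (0.081 and 0.40). EIF2B1, a subunit of the eIF2 exchange factor, was the gene that rose (1.13-fold), and with the correction 5 genes of this list were higher and 8 lower.

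Of 14 other tested genes of transfer RNA charging 4 were higher and 2 lower, where 29.8% and 31.3% of all tested genes were. With the correction 5 were higher and 1 lower, where 27.3% and 27.8% of all tested genes were. YRDC, which makes the threonylcarbamoyl modification of transfer RNA with OSGEP, rose 1.50-fold, from 49.6 ± 2.43 to 74.6 ± 3.87 CPM, and OSGEP rose 1.20-fold. MTFMT, which formylates the mitochondrial initiator transfer RNA, fell 1.34-fold, from 23.9 ± 1.81 to 17.8 ± 0.471 CPM. Mitochondria make glutaminyl-tRNA with an amidotransferase in place of a glutamine synthetase. Of its subunits GATB rose 1.09-fold (edgeR adjusted p = 0.0349), a call lost with the correction. QRSL1 and GATC were not called as counted (log2 fold changes -0.11 and -0.083). With the correction QRSL1 was called higher, close to the threshold (0.17, edgeR adjusted p = 0.0489), and GATC was not called (0.017).
In transfer RNA processing and export 6 of 27 genes were higher and 10 lower, near the 29.8% and 31.3% of all tested genes. With the correction 7 were higher and 8 lower, where 27.3% and 27.8% of all tested genes were. TRMT10C, a subunit of mitochondrial RNase P, fell 1.52-fold, SSB, the La protein that binds new polymerase III transcripts, 1.44-fold and POP1, a subunit of nuclear RNase P, 1.34-fold. POP5, another RNase P subunit, rose 1.22-fold and lost its call with the correction.
Beside the mitochondrial synthetases, 2 of 12 mitochondrial translation factors were higher and 6 lower (median -0.21), where 29.8% and 31.3% of all tested genes were. With the correction 1 was higher and 6 lower (median -0.13), where 27.3% and 27.8% of all tested genes were. GUF1, an elongation factor 4 homologue, fell 1.81-fold, MTRF1, a release factor homologue, 1.87-fold and MTIF2, the initiation factor, 1.49-fold. These were larger changes than any mitochondrial synthetase showed. Their log2 fold changes with the correction were -0.53, -0.64 and -0.42. The 2 that rose were MRRF (1.21-fold) and TUFM (1.05-fold). With the correction MRRF was at 0.51, still called higher, and TUFM turned lower (-0.095). Of 75 mitochondrial ribosomal protein genes 24 were higher and 11 lower (median 0.038), and with the correction 20 were higher and 33 lower (median -0.073). Of 5 tested cytosolic elongation factor genes 2 were higher and 1 was lower, all under the log2 size of 0.32 as counted. With the correction 2 were higher and 3 lower. At that size 1 was then higher and 1 lower, the latter EEF1A2 (-0.37). EEF2, the translocation factor, went from 4992 ± 52.0 to 5176 ± 10.7 CPM and turned lower with the correction (-0.078).

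**Figure D5:**
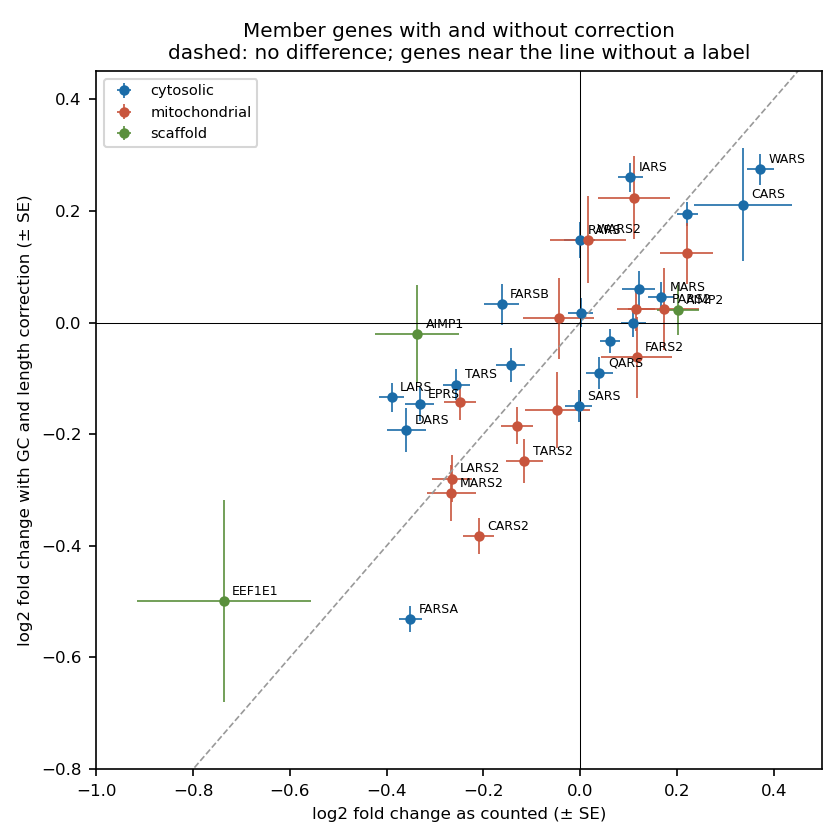
Log2 fold change of 36 of the genes as counted (horizontal) and with the GC and length correction (vertical), with bars for the standard error and a dashed line for no difference. LARS, DARS, EPRS, TARS and AIMP1 lie above the line, nearer to 0, FARSA and CARS2 lie below it, and WARS and KARS remain higher on both axes.

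In the deposited table WARS lies at chr14:100334493-100376251 on the minus strand, LARS at chr5:146113896-146182524 on the minus strand, FARSA at chr19:12922480-12933714 on the minus strand, KARS at chr16:75627474-75647665 on the minus strand and EPRS at chr1:219968601-220046658 on the minus strand. Chromosome and strand of the 37 genes matched their GENCODE 29 entries (GRCh38); the table names no build. The deposited positions of GARS and MARS cover 2.55% and 4.32% of the gene, whose GENCODE spans are chr7:30594681-30634033 and chr12:57475445-57517569. Those of YARS2 and TARS cover 32.9% and 42.4%. GENCODE 29 also lists pseudogenes named after 13 of the 37 genes, among them KARS, CARS and AIMP1, whose reads can be shared with them.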

How the data were processed

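RNA was isolated with Trizol and libraries were made with the NEBNext Ultra RNA kit, per the labels' protocols; the design text speaks of microarrays, but the series type is sequencing. STAR, HTSeq 0.6.0 and DESeq2 are the tools in the submitters' processing notes; the sources used here do not give the genome build, annotation or use of strand. The deposited gene table holds whole-number read counts for each library, not normalised by the authors. The authors' deposited log2 fold changes and p-values were not used for any result. Columns were assigned to groups by name (NC to shcontrol, SI to shHNRNPC) and none to 1 sample, so only the counts were kept and 24 other columns of per-library values were not used.

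Counts were filtered with filterByExpr, scaled by TMM and tested with glmQLFit and glmQLFTest in edgeR 4.0.16 (R 4.3.3) over all 6 libraries, with p-values adjusted by Benjamini-Hochberg and called under 0.05. The SE of a log2 fold change is its size over the root of the F statistic. CPM used the TMM-scaled library sizes, and pair ratios a prior count of 0.5. The longest coding transcript of each gene in GENCODE 29 gave its GC content and length, whose smooth trend (mgcv 1.9.3) entered the refit as an offset centred on its median. The fit was tested on simulated data. Libraries of 1 group differed by a mean chi-square of 1.56 to 2.50 per gene, where 1 is counting noise alone, so no 2 libraries were counted as 1. The members, classes and lists were chosen with earlier results of these data known. 1 member is counted but not reported here by name, and the other members are named; values of each library are given for up to 5 called members with the largest fold change per class and direction, and other lists by up to 4 genes per direction with the smallest adjusted p. Alternatives were RLE, upper-quartile and library-size scaling, other filters, DESeq2 1.42.0, leaving out each library, a block on the column suffix (added after seeing the data), the correction and other class definitions.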

Additional observations from a re-analysis of the deposited data

How the results depend on the processing

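Scaling by RLE or the upper quartile changed no call among the 37 genes. Library size alone left 9 higher, with AARS, HARS2 and PARS2 lost, and 1 mitochondrial synthetase higher, 0 elongation factor genes higher, 1 mitochondrial translation factor higher and 15 mitochondrial ribosomal protein genes higher. DESeq2, no filter and a filter of 1 CPM each lost PARS2 alone. With the GC and length correction 6 members were higher, 4 cytosolic synthetases were higher, 0 scaffolds were higher and 1 was lower, 5 eIF2 pathway genes were higher, 1 other charging gene was lower, 3 elongation factor genes were lower, 1 mitochondrial translation factor was higher and 33 mitochondrial ribosomal protein genes were lower. AARS, FARSB and YARS changed sign to -0.033, 0.032 and -0.0011, uncalled, and the scaffold median was -0.021. Requiring a log2 size of 0.32 left 2 members higher and 6 lower, 2 cytosolic synthetases higher and 4 lower, and 0 mitochondrial synthetases higher and 0 lower. DESeq2 left 1 other charging gene lower.

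The cytosolic median was 0.015 by upper quartile and -0.039 by library size, and 0.00057 to 0.024 with 1 library left out. The mitochondrial median was -0.085 by library size, -0.014 with AIMP2 counted in, and -0.055 to -0.0036 with 1 library left out. Leaving out 1 library gave 1 to 3 other charging genes lower and 1 to 2 elongation factor genes higher. Without GARS and KARS 6 cytosolic synthetases were higher and 7 lower. The cause of these shifts was not tested. The columns carry no replicate number of the sample titles, so the planned block could not be fitted. A replicate block on the shared suffix of the column names, chosen after seeing the data, left 12 members higher and 15 lower and changed no call among them. The deviations of same-suffix libraries had correlations of -0.050, 0.012 and -0.039 over genes, and those of different suffix -0.030 to 0.068. These values show no pairing by suffix. They cannot decide whether a weak one exists, since much of each deviation is counting noise. Low counts limit EEF1E1 and CARS, the genes with the largest SE.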

Other observations

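Synthetases fall into 2 structural classes by their catalytic domain, a property the selection did not use and a grouping added after the values were seen. Of 16 class I enzymes 5 were higher and 6 lower, with a median log2 fold change of 0.0081. Of 17 class II enzymes 6 were higher and 6 lower, with a median of 0.00083. Over all tested genes 29.8% were higher and 31.3% lower. With the GC and length correction 4 class I enzymes were higher and 8 lower (median -0.045). For class II 2 were higher and 6 lower with it (median 0.0076), where 27.3% and 27.8% of all tested genes were. EPRS joins an enzyme of each class and was left out of both. As counted the largest rises, WARS and CARS, and the largest fall of a synthetase, LARS, were of class I, while with the GC and length correction the largest fall was FARSA of class II (-0.53) and CARS was not called. The class I enzymes for the branched amino acids differed in direction, with LARS, LARS2 and IARS2 lower and IARS higher.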
